A study of Mus musculus with 16 samples.

Results

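The IL-6 family genes described here are 10 rows of a gene count table, chosen by symbol: the cytokines Il6, Lif, Clcf1 and Il11, the receptor chains Il6ra, Il6st, Lifr and Osmr, the transcription factor Stat3 and the feedback inhibitor Socs3. All 10 were found among the 52997 symbols of the table, and each of them passed the low-count filter that left 13949 genes for testing. The cells were mesenchymal stromal cells (mSC, fibroblast-like cells of the tissue around muscle fibres) sorted from the hindlimb skeletal muscle of C57BL/6 mice aged 8 weeks. Every mouse had received an intraperitoneal injection, either of calcitonin gene-related peptide (CGRP, a neuropeptide released by sensory neurons) or of buffered saline without it (PBS). Cells were isolated 4 h or 8 h later. The 4 groups, PBS at 4 h, CGRP at 4 h, PBS at 8 h and CGRP at 8 h, held 4 replicates each, with 1000 double-sorted cells per library. No uninjected mice are among the 16 libraries. The labels used here do not state the dose of CGRP, the sorting gate or whether a replicate was 1 mouse or a pool.

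Cytokines of the IL-6 family share the signalling chain gp130, the product of Il6st, and differ in the chain that joins it. Interleukin 6 uses the chain encoded by Il6ra and interleukin 11 that encoded by Il11ra1. Leukaemia inhibitory factor (Lif) and cardiotrophin-like cytokine factor 1 (Clcf1) use the Lif receptor chain encoded by Lifr. Mouse oncostatin M signals mainly through the chain encoded by Osmr. Janus kinases bound to these chains phosphorylate STAT3, which enters the nucleus and switches on its targets, among them Socs3, whose product binds gp130 and ends the signal. In muscle, stromal cells are a known source of interleukin 6, and interleukin 6 and Lif are known to act on muscle stem cells. The libraries measure transcripts only, so neither secreted cytokine nor phosphorylated STAT3 was measured.

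Library totals ran from 6373713 to 10011920 counts. Muscle stromal markers summed to between 130600 and 175600 CPM (each count relative to its library size, corrected by TMM). The summed macrophage markers did not exceed 9.05 CPM, the lymphocyte markers 1.57, the neutrophil markers 0.672, the endothelial markers 6.87, the satellite cell markers 0.832 and the Schwann cell markers 2.79. Nkg7, S100a9, Pax7, Myf5 and Sox10 were at 0 counts in the CGRP 4 h group, and Myf5 in all 4 groups. Myofibre transcripts summed to between 82.8 and 227 CPM. A set of 4 libraries (PBS 4 h replicate 4, CGRP 4 h replicate 3 and PBS 8 h replicates 1 and 4) stood apart by the number of genes detected, 23294 to 25579 against 21138 to 22341 in the others. The gene model Gm10800 accounted for 1.77% to 2.45% of a library in PBS 8 h replicates 1 to 3, and for 0.536% to 1.01% elsewhere.

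**Figure D1:**
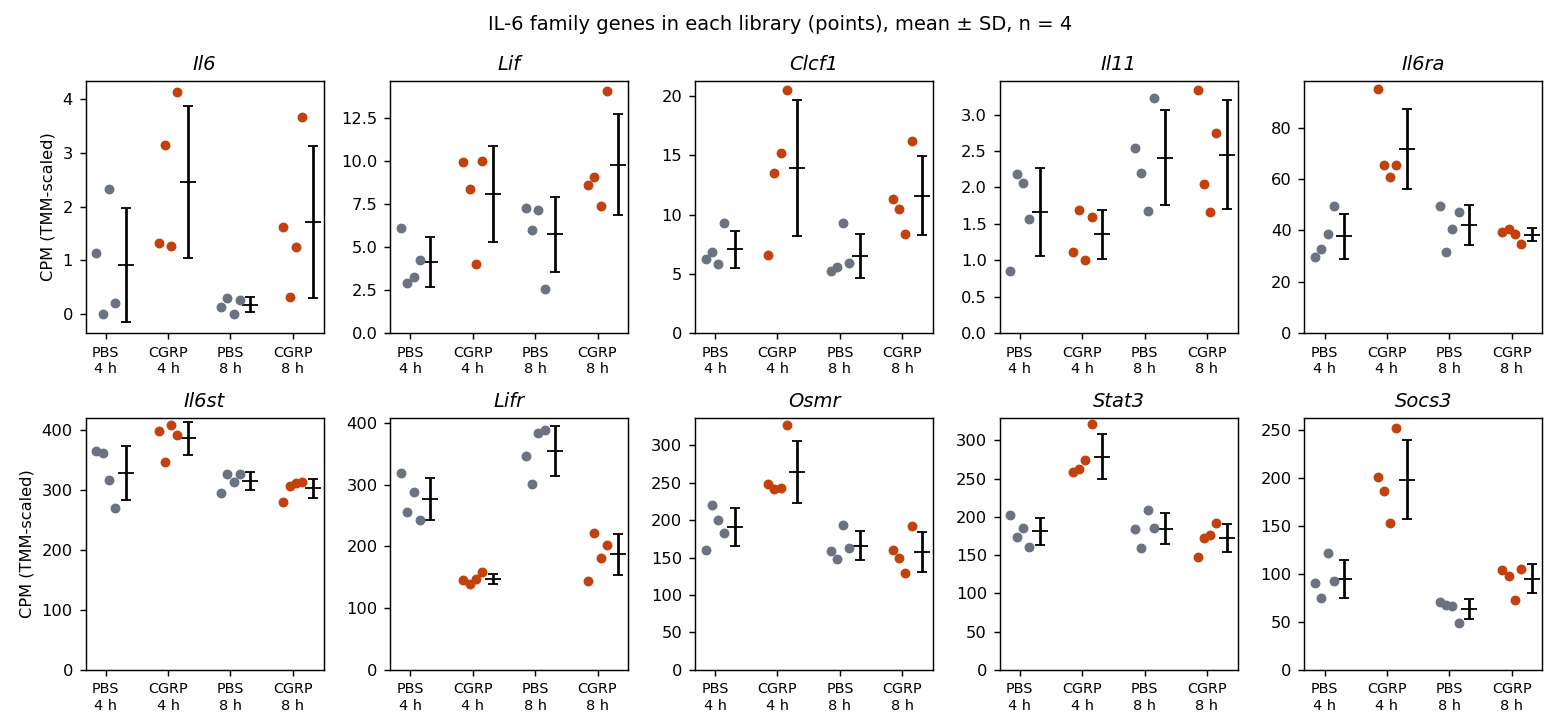
Expression of the 10 IL-6 family genes in each library, in CPM on linear axes, for PBS (grey) and CGRP (orange) at 4 h and 8 h; points are libraries and bars are mean ± SD (n = 4). All 4 CGRP libraries lie above all 4 PBS libraries at 4 h for Il6ra, Osmr, Stat3 and Socs3, and below them at both times for Lifr.

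Per kilobase of exon, the receptor and signalling genes were more abundant than the cytokine genes. In the PBS 4 h group the levels, as RPKM (CPM divided by exon length in kilobases, mean ± SD, n = 4), were 32.8 ± 6.80 for Socs3, 29.6 ± 4.01 for Il6st, 25.7 ± 3.17 for Lifr, 19.0 ± 1.85 for Stat3 and 15.8 ± 2.11 for Osmr. Il6ra followed at 4.36 ± 1.02 RPKM, then the cytokine genes Clcf1 at 1.85 ± 0.404, Lif at 0.950 ± 0.333, Il11 at 0.801 ± 0.291 and Il6 at 0.378 ± 0.437. The libraries of Socs3 and Il6st, of Il6st and Lifr, of Stat3 and Osmr, of Lif and Il11 and of Il11 and Il6 overlapped, so the order within those pairs is not resolved, whereas the other neighbours in the order did not overlap. At 4 h after CGRP the order changed among the signalling chains: Osmr stood at 21.9 ± 3.43 RPKM and Lifr at 13.7 ± 0.773, with every Osmr value (from 19.9) above every Lifr value (up to 14.7). In the PBS 8 h group Lifr was the most abundant of the 10 genes (33.0 ± 3.75 RPKM), ahead of Il6st (28.4 ± 1.37), and their libraries overlapped. Exon length here is the union of all annotated exons, which overstates the transcript length of genes with many isoforms.

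At 4 h the comparison asked which of these genes CGRP had changed in mSC. Of the 10 genes 6 rose (Lif, Clcf1, Il6ra, Osmr, Stat3 and Socs3), 1 fell (Lifr), and Il6, Il11 and Il6st did not pass the test. Over all 13949 genes tested, 16.2% were called at 4 h, 7.84% of them higher and 8.37% lower as shares of the genes tested. The median log2 fold change of the 10 genes was 0.77, against -0.00 over all genes tested. Because the 10 genes were chosen with earlier results of these data known, such counts and medians beside all genes are a description only. Il6 reached the abundance that the filter requires in 4 CGRP 4 h, 2 CGRP 8 h and 1 of the 8 PBS libraries and so entered the test through the CGRP groups; the other 9 genes had 6 rises, 1 fall and a median of 0.62. In 5 of the 10 genes the CGRP and PBS libraries did not overlap, with CGRP higher in 4 (8.95% of all genes tested) and lower in 1 (9.90%). In the fit without CGRP 4 h replicate 4, 4 of the genes were called, 3 higher and 1 lower. Summed pericyte and smooth muscle markers were lower at 4 h after CGRP, 27.3 to 58.4 CPM against 63.9 to 117 CPM after PBS. Of the 5 listed, 0 were at 0 counts in a group, and 2 of the 4 tested (Cspg4 and Myh11) were called lower. Cspg4 made up most of these sums, at 79.8 ± 19.1 CPM after PBS and 34.9 ± 8.44 CPM after CGRP. The means of Rgs5, Myh11 and Acta2 were also lower after CGRP. That of Kcnj8 was higher, 4.26 ± 3.17 CPM after PBS and 5.83 ± 3.42 CPM after CGRP. Summed muscle stromal markers were also lower, 134900 to 144700 against 152400 to 175600 CPM, with 2 of the 7 called higher and 3 lower. The part of these shifts in the results was not tested. In sorted cells analysed in bulk, fewer cells of a type and less RNA per cell cannot be told apart.

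Among the cytokines, Lif and Clcf1 rose at 4 h. Lif, on chromosome 11 at 4257557 to 4272514 (mm10, forward strand), stood at 6.13, 2.91, 3.23 and 4.27 CPM in PBS 4 h replicates 1 to 4 and at 9.95, 8.35, 4.02 and 9.97 CPM in CGRP 4 h replicates 1 to 4. CGRP replicate 3 lay among the PBS libraries and the other CGRP libraries lay above them all. The log2 fold change of Lif was 0.98 ± 0.33 (SE, adjusted p = 0.0470, exact two-sided permutation p = 0.0857). Leaving out 1 library ended the call for CGRP 4 h replicates 1, 2 and 4 and PBS 4 h replicates 2, 3 and 4 (values of 0.84 to 1.00 with adjusted p = 0.0775 to 0.138). It also ended with upper-quartile scaling (adjusted p = 0.0552), without robust estimation (0.0530), with only the groups compared (0.0526) and with the replicate number as a block (adjusted p = 0.0538).

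Clcf1, on chromosome 19 at 4214238 to 4223490 (forward strand), went from 6.27, 6.86, 5.81 and 9.27 CPM after PBS to 6.60, 13.5, 15.2 and 20.5 CPM after CGRP. Again 1 CGRP library, replicate 1, lay among the PBS libraries. The log2 fold change was 0.97 ± 0.28 (adjusted p = 0.0218, exact permutation p = 0.0857), and the call was lost when CGRP 4 h replicate 4 was left out (0.74, adjusted p = 0.111), and likewise for each of PBS 4 h replicates 1, 2 and 3 (0.90 to 0.95, adjusted p = 0.0540 to 0.0598). In GENCODE M21, Clcf1 shares 311 exonic bases with AC109138.7, a gene model on the same strand.

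Il6 was scarce, and per kilobase of exon it was the last of the 10 genes in every group except CGRP 4 h, where Il11 was last. PBS 4 h replicates 1 to 4 held 8, 0, 18 and 2 counts of Il6 and CGRP 4 h replicates 1 to 4 held 13, 26, 10 and 31 counts. The PBS group was spread widely, and its replicate 3 stood above 2 of the CGRP libraries in CPM. Pooled over the groups the ratio was 2.89 (95% exact counting interval 1.86 to 4.62), while the model across replicates gave a log2 fold change of 1.46 ± 0.78 (adjusted p = 0.226; the permutation test gave an exact p of 0.114). When PBS 4 h replicate 3 was left out the pooled ratio was 6.25 (3.23 to 13.5). Where Il6 had 0 counts, in PBS 4 h replicate 2 and PBS 8 h replicate 3, a floor of 3 counts allows a level of up to 0.311 and 0.454 CPM. Reads amplified by PCR and carrying no molecular identifiers are not independent molecules, so these intervals and floors cover counting error only. Il11, which encodes a cytokine best known from bone and fibrotic tissue, held 6 to 21 counts in the PBS 4 h libraries and 8 to 14 in the CGRP 4 h libraries (log2 fold change -0.31 ± 0.41, adjusted p = 0.679). Its pooled ratio was 0.785 (95% exact counting interval 0.520 to 1.18).

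The receptor chains moved in opposite directions at 4 h. Il6ra, the interleukin 6 binding chain (chromosome 3, 89864059 to 89913196, reverse strand), stood at 29.8, 32.7, 38.7 and 49.7 CPM in the PBS libraries and at 94.9, 65.4, 60.9 and 65.3 CPM in the CGRP libraries. The groups did not overlap, and CGRP replicate 1 was the highest library. The log2 fold change was 0.92 ± 0.16 (adjusted p = 0.000513; ratio 1.90, 95% interval 1.49 to 2.42). The antisense model Gm42809 shares 242 exonic bases with Il6ra, and the libraries do not mark strand. Osmr, the oncostatin M receptor chain (chromosome 15, 6813577 to 6874969, reverse strand), rose from 160, 221, 200 and 183 CPM to 248, 241, 243 and 327 CPM, a log2 fold change of 0.47 ± 0.12 (adjusted p = 0.0129). CGRP 4 h replicate 4 was far above the other CGRP libraries, and without it the value was 0.36 (adjusted p = 0.0615). Without the 4 libraries with the most genes detected it was 0.49 (adjusted p = 0.0513).

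Lifr, the Lif receptor chain (chromosome 15, 7090614 to 7197489, forward strand), fell at 4 h. Its PBS libraries stood at 319, 256, 288 and 243 CPM and its CGRP libraries at 145, 138, 146 and 159 CPM. The highest CGRP library was well below the lowest PBS library, and the log2 fold change was -0.91 ± 0.11 (adjusted p = 1.51e-05; ratio 0.533, 95% interval 0.448 to 0.633). Il6st, the shared chain gp130 (chromosome 13, 112464070 to 112510086, forward strand), stood at 271 to 365 CPM after PBS and at 346 to 408 CPM after CGRP, ranges that overlapped. Its log2 fold change of 0.23 ± 0.09 did not pass the test (adjusted p = 0.0741, 95% interval of the ratio 1.03 to 1.34). It did pass without CGRP 4 h replicate 2 (0.29, adjusted p = 0.0358) or PBS 4 h replicate 1 (0.30, adjusted p = 0.0334). In the other 14 of its 16 alternatives Il6st stayed uncalled, with adjusted p up to 0.428.

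A ratio of 2 genes within a library does not depend on how libraries are scaled. Chosen after the values were seen and therefore given without a test, the ratio of Osmr to Lifr per kilobase of exon was 0.626 ± 0.134 after PBS and 1.59 ± 0.164 after CGRP at 4 h, and 0.416 ± 0.0338 and 0.767 ± 0.182 at 8 h (mean ± SD, n = 4). The ratio of Il6ra to Lifr was 0.175 ± 0.0580 and 0.609 ± 0.141 at 4 h, and 0.148 ± 0.0222 and 0.262 ± 0.0561 at 8 h. In neither ratio did the CGRP and PBS libraries overlap at either time. Nor did they in the ratio of Il6st to Lifr, which was 1.16 ± 0.145 after PBS and 2.55 ± 0.157 after CGRP at 4 h. At 8 h it was 0.871 ± 0.120 and 1.60 ± 0.232. By contrast the ratio of Osmr to Il6st overlapped at both times. It was 0.541 ± 0.0955 after PBS and 0.630 ± 0.0985 after CGRP at 4 h, and 0.482 ± 0.0634 and 0.478 ± 0.0818 at 8 h. Of the genes in these ratios, Lifr was called at 8 h, and Osmr, Il6ra and Il6st were not.

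**Figure D2:**
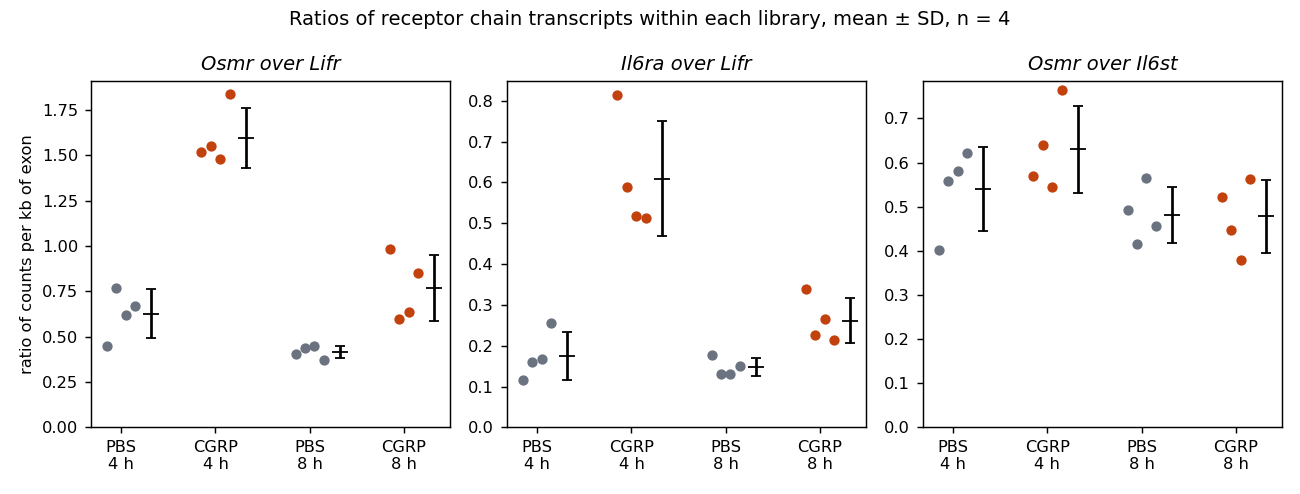
Ratios of receptor chain transcripts within each library (counts per kilobase of exon, linear axes from 0), PBS grey and CGRP orange, points are libraries and bars mean ± SD (n = 4). The ratios of Osmr and of Il6ra to Lifr are higher after CGRP at both times, most at 4 h (1.59 and 0.609), while that of Osmr to Il6st overlaps between the groups.

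Downstream of the receptors, Stat3 and Socs3 were both higher at 4 h. Stat3, which encodes the transcription factor that the family activates (chromosome 11, 100885098 to 100939540, reverse strand), stood at 203, 174, 186 and 161 CPM after PBS and at 258, 262, 274 and 321 CPM after CGRP. No CGRP library overlapped with a PBS library, and the log2 fold change was 0.62 ± 0.10 (adjusted p = 0.000174; ratio 1.54, 95% interval 1.33 to 1.79). A stretch of 72 exonic bases of Stat3 overlaps Stat5a on the opposite strand, and reads there cannot be told apart. Stat5a itself stood at 39.2 ± 3.47 CPM after PBS and 32.2 ± 0.888 CPM after CGRP at 4 h. Socs3, the feedback inhibitor (chromosome 11, 117966079 to 117970047, reverse strand), went from 90.3, 74.4, 122 and 92.8 CPM to 201, 186, 153 and 253 CPM. Every CGRP library was above the highest PBS library, and the log2 fold change was 1.07 ± 0.17 (adjusted p = 0.000357; ratio 2.09, 95% interval 1.62 to 2.70). For each of Il6ra, Osmr, Lifr, Stat3 and Socs3 the exact two-sided permutation p at 4 h was 0.0286, the smallest that 4 against 4 libraries can give.

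Promoter windows of 300 bases, from 250 bases before to 50 after a start site (RefSeq, GRCm38.p6), were found for 9 of the 10 genes, 11 windows in all, and none was found for Clcf1. They were searched on both strands for TTCNNNGAA (the spacing of a STAT dimer site), TGACGTCA (the full cAMP response element, CRE), TGACG (its shorter core, which the full element contains) and TGANTCA (an AP-1 site). TTCNNNGAA was found in 1 member window, that of Socs3, against 8.29% of the 32817 windows in the table. TGACGTCA was found in 0 member windows (1.79% of all windows), TGACG in those of Il6 and Il6ra (20.8%) and TGANTCA in those of Il6, Il11, Lif and Osmr (7.81%). A match describes these letters only and does not show that a factor binds. The stretches around 3 of the matches are shown 5′ to 3′ on the gene's strand, with the match in capitals, because Socs3 and Lif are members that were called at 4 h and Il6 is the gene the family is named for: Socs3 at chr11:117969485-117969547 (reverse strand), with the match starting 154 bases before the RefSeq start site, Lif at chr11:4257318-4257373 (forward strand), 228 bases before it, and Il6 at chr5:30012952-30013010 (forward strand), 135 bases before it.
Socs3, TTCNNNGAA: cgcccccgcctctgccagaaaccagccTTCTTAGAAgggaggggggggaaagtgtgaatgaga
Lif, TGANTCA: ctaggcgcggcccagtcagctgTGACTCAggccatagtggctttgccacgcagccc
Il6, TGACG on the opposite strand: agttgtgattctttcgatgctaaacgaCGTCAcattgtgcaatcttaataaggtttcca

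At 8 h the same question was asked of separate libraries. Socs3 was still higher and Lifr still lower after CGRP, and the other 8 genes did not pass the test, so that 2 of 10 were called against 8.67% of all genes tested (5.00% higher and 3.67% lower). The median log2 fold change of the 10 genes was -0.02, and -0.06 without Il6, against -0.02 over all genes tested. The libraries of CGRP and PBS did not overlap for Lif and Socs3, where CGRP was higher (8.08% of all genes tested), and for Lifr, where it was lower (6.75%). Those of Il6 did not overlap either, with CGRP higher. Il6 is left out of that comparison because it entered the test through the CGRP groups and its order was within counting error. Without the 4 libraries with the most genes detected 191 of all genes tested were called at 8 h in place of 1210, and Lifr alone among the 10. That fit kept only replicates 2 and 3 of the PBS 8 h group and every CGRP 8 h library. The part of the smaller group in the lost calls was not tested, here or for the other genes at 8 h. Summed pericyte and smooth muscle markers overlapped at 8 h, 99.0 to 146 CPM after PBS and 87.9 to 123 CPM after CGRP, and muscle stromal markers did not, 154200 to 167500 CPM and 130600 to 147300 CPM. Summed myofibre markers stood at 140 to 227 CPM after PBS and at 96.5 to 143 CPM after CGRP, and 1 of the 5 tested, Acta1, was called lower (-0.78, adjusted p = 0.0204). The part of these markers in the results was not tested.

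**Figure D3:**
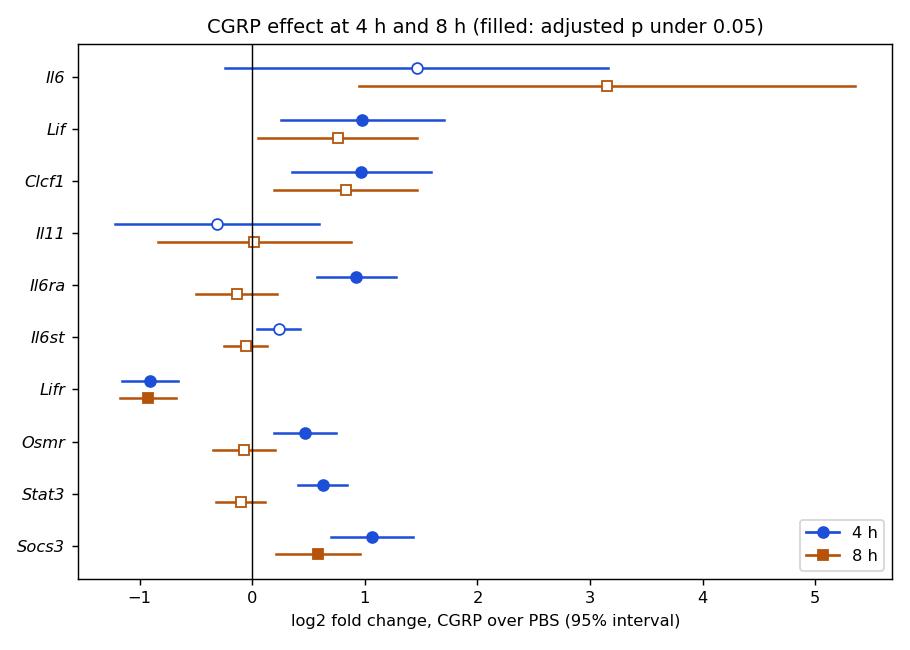
log2 fold change of CGRP over PBS for each gene at 4 h (blue circles) and 8 h (brown squares), with 95% intervals from the standard error; filled symbols have an adjusted p under 0.05. Lifr lies near -0.9 at both times, while Il6ra, Osmr and Stat3 are above 0 at 4 h and close to 0 at 8 h.

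Lifr stood at 347, 302, 384 and 389 CPM in PBS 8 h replicates 1 to 4 and at 144, 222, 181 and 202 CPM in CGRP 8 h replicates 1 to 4. The log2 fold change was -0.93 ± 0.11 (adjusted p = 3.59e-05; ratio 0.527, 95% interval 0.443 to 0.625). The difference of the effects, 8 h minus 4 h, was -0.02 ± 0.16 (adjusted p = 0.976), whose interval as a ratio runs from 0.776 to 1.26. In every alternative run Lifr was called lower at both times. Socs3 stood at 70.7, 67.8, 66.1 and 48.6 CPM after PBS and at 104, 97.7, 72.7 and 106 CPM after CGRP. CGRP replicate 3 was only just above the highest PBS library. The log2 fold change of 0.59 ± 0.17 (adjusted p = 0.0402) lost its call when any 1 of the 8 libraries except CGRP 8 h replicate 3 was left out (0.49 to 0.66, adjusted p = 0.0579 to 0.136). It was also lost with a replicate block (adjusted p = 0.0736) and without the 4 libraries with the most genes detected (0.51, adjusted p = 0.186).

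Of the cytokine genes, Il6, Lif and Clcf1 had higher means after CGRP at 8 h that did not pass the test. Il6 held 1, 2, 0 and 2 counts in the PBS 8 h libraries and 16, 3, 12 and 24 counts in the CGRP 8 h libraries. The lowest CGRP library, replicate 2, lay at 0.323 CPM, just above the highest PBS library at 0.293 CPM and below the 0.454 CPM that 3 counts would give in PBS 8 h replicate 3, so this order is within counting error. The pooled ratio was 8.95 (95% exact counting interval 3.61 to 28.7) and the model gave 3.15 ± 1.01 on the log2 scale (adjusted p = 0.0553). The permutation test gave an exact p of 0.0286, which rests on that same order. Leaving out CGRP 8 h replicate 2 gave a log2 fold change of 3.52 (adjusted p = 0.0311), DESeq2 gave 3.30 (adjusted p = 0.0159), and no filter gave 3.18 (adjusted p = 0.00159). In the other 12 of its 15 alternatives Il6 stayed uncalled, with adjusted p up to 0.263. Lif stood at 2.55 to 7.25 CPM after PBS and at 7.39 to 14.1 CPM after CGRP (0.76 ± 0.32, adjusted p = 0.158). For Clcf1 the PBS range was 5.22 to 9.27 CPM and the CGRP range 8.33 to 16.2 CPM (0.83 ± 0.29, adjusted p = 0.0798). Without CGRP 8 h replicate 3 it passed (0.98, adjusted p = 0.0475), as it did with no filter (0.85, adjusted p = 0.0108) and with only the groups compared (0.83, adjusted p = 0.0470). In the other 13 of its 16 alternatives Clcf1 stayed uncalled, with adjusted p up to 0.450. Il11 stood at 2.41 ± 0.652 CPM after PBS and 2.45 ± 0.742 CPM after CGRP, and a difference was not shown (mean ± SD, n = 4; 95% interval of the ratio 0.559 to 1.83).

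For Il6ra, Osmr, Stat3 and Il6st the libraries of the 2 groups overlapped at 8 h. Il6ra stood at 42.1 ± 7.95 CPM after PBS and 38.3 ± 2.47 after CGRP (log2 fold change -0.14 ± 0.16, adjusted p = 0.685), Osmr at 166 ± 19.4 and 158 ± 26.4 (-0.07 ± 0.13, adjusted p = 0.798), Stat3 at 184 ± 20.3 and 172 ± 18.4 (-0.10 ± 0.10, adjusted p = 0.619) and Il6st at 316 ± 15.2 and 303 ± 15.6 (-0.06 ± 0.09, adjusted p = 0.759). The 95% intervals of these ratios were 0.709 to 1.16 for Il6ra, 0.787 to 1.15 for Osmr, 0.802 to 1.08 for Stat3 and 0.840 to 1.10 for Il6st. The difference between the times was tested directly, as the CGRP effect at 8 h minus that at 4 h, for which 1.12% of all genes tested were called (0.695% higher and 0.423% lower). Il6ra (-1.06 ± 0.23, adjusted p = 0.0251) and Stat3 (-0.72 ± 0.14, adjusted p = 0.0105) passed, so that their CGRP effect was lower at 8 h. Leaving out PBS 4 h replicate 2, PBS 8 h replicate 1 or PBS 8 h replicate 4 ended the call of Il6ra (-1.01 to -0.98, adjusted p = 0.0532 to 0.0605), and that of Stat3 without the 4 libraries with the most genes detected (-0.67, adjusted p = 0.123). For Osmr (-0.54 ± 0.18, adjusted p = 0.141), Socs3 (-0.48 ± 0.24, adjusted p = 0.377) and Il6st (-0.29 ± 0.12, adjusted p = 0.271) a difference between the times was not shown. Osmr passed without the low-count filter (-0.53, adjusted p = 0.0209) and stayed uncalled in the other 22 of its 23 alternatives.

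Within a treatment, 8 h was compared with 4 h; these comparisons use the same libraries as those above and are not independent of them. After CGRP, 5 of the 10 genes were lower at 8 h than at 4 h and 0 were higher, where 7.26% of all genes tested were called (3.05% lower and 4.20% higher). Without the low-count filter Lifr was called higher (0.36, adjusted p = 0.0109), as it was without CGRP 8 h replicate 1 (0.45, adjusted p = 0.0126). It stayed uncalled in the other 14 of its 16 alternatives. Summed pericyte and smooth muscle markers moved with this comparison, from 27.3 to 58.4 CPM at 4 h to 87.9 to 123 CPM at 8 h after CGRP. Of 4 tested markers 1, Cspg4, was called higher (1.37, adjusted p = 0.000474). Cspg4 made up most of these sums, at 34.9 ± 8.44 CPM at 4 h and 89.7 ± 13.2 CPM at 8 h. The means of Myh11 and Acta2 were also higher at 8 h, and those of Kcnj8 and Rgs5 were not. The part of these markers in the result was not tested. Socs3 fell by 1.06 on the log2 scale (SE 0.17, adjusted p = 0.000794), Il6ra by 0.90 (SE 0.16, adjusted p = 0.00125), Osmr by 0.75 (SE 0.13, adjusted p = 0.000736), Stat3 by 0.70 (SE 0.10, adjusted p = 0.000113) and Il6st by 0.35 (SE 0.09, adjusted p = 0.0166). After PBS, 0 of the 10 genes were called by edgeR with the low-count filter (0.516% of all genes tested, 0.265% higher and 0.251% lower). DESeq2 called Socs3 (-0.58, adjusted p = 0.0393), and it called 323 genes in all against 72 in the reported fit. Without the filter edgeR called Socs3 (-0.58, adjusted p = 5.96e-05) and Lifr (0.36, adjusted p = 0.0189), and 422 genes in all. Socs3 stayed uncalled in the other 14 of its 16 alternatives and Lifr in the other 15 of 16. Socs3 after PBS was 94.8 ± 19.7 CPM at 4 h and 63.3 ± 9.97 CPM at 8 h (edgeR log2 fold change -0.58 ± 0.17, adjusted p = 0.130).

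The rest of the pathway was described with 4 lists. The oncostatin M gene Osm had 0 counts in 3 groups and 2 counts in CGRP 8 h. Among 4 tested receptor chains of the family outside the 10 genes, 0 rose and 1 fell at 4 h and 0 rose and 2 fell at 8 h. Over all genes tested, 7.84% rose and 8.37% fell at 4 h, and 5.00% rose and 3.67% fell at 8 h. Il11ra1, the interleukin 11 receptor chain, fell at both times: from 545 ± 46.1 to 333 ± 14.0 CPM at 4 h (-0.71 ± 0.08, adjusted p = 5.91e-06) and from 516 ± 33.1 to 396 ± 42.6 CPM at 8 h (-0.38 ± 0.08, adjusted p = 0.00644; adjusted p = 0.127 without the 4 libraries with the most genes detected). Il11ra2, a near copy of Il11ra1, held 1 or 2 counts per group, and the labels do not say how reads shared by the copies were counted. Cntfr, the ciliary neurotrophic factor receptor chain that Clcf1 also binds, fell at 8 h from 8.70 ± 2.08 to 4.53 ± 1.05 CPM (-0.94 ± 0.29, adjusted p = 0.0420), a call lost when any 1 of the 8 libraries except PBS 8 h replicate 2 was left out. It was also lost with no filter, with a replicate block and without the 4 libraries with the most genes detected (adjusted p = 0.0505 to 0.230 over the losses).

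Of 13 tested kinases, other STATs and adaptors, 0 rose and 1 fell at 4 h (8.37% of all genes tested fell), and 1 rose and 0 fell at 8 h (5.00% of all genes tested rose). Stat6, the transcription factor of interleukin 4 signalling, fell at 4 h from 236 ± 19.2 to 195 ± 14.7 CPM (-0.28 ± 0.08, adjusted p = 0.0206), a call lost when CGRP replicate 1 or 2 or PBS replicate 1, 2 or 4 was left out, with no filter and without the 4 libraries with the most genes detected (adjusted p = 0.0557 to 0.0926). Stat5a rose at 8 h from 32.2 ± 3.37 to 43.3 ± 3.24 CPM (0.43 ± 0.11, adjusted p = 0.0165), a call lost without CGRP replicate 1 or 4, PBS replicate 2 or the same 4 libraries (adjusted p = 0.0513 to 0.0715). The list median was -0.15 at 4 h and 0.07 at 8 h, against -0.00 and -0.02 over all genes tested. Of 14 other negative regulators, 2 rose and 0 fell at 4 h (7.84% of all genes tested rose), and 1 rose and 0 fell at 8 h (5.00% of all genes tested rose), with list medians of 0.06 and 0.02. Socs1, an inhibitor of Janus kinases, rose at 4 h from 7.37 ± 3.89 to 16.4 ± 3.76 CPM (1.14 ± 0.31, adjusted p = 0.0150). Socs5 rose at both times, from 23.5 ± 2.84 to 44.6 ± 15.7 CPM at 4 h (0.92 ± 0.25, adjusted p = 0.0208) and from 28.05 ± 3.53 to 52.7 ± 20.2 CPM at 8 h (0.91 ± 0.25, adjusted p = 0.0341). The Socs5 call was lost at 4 h without CGRP replicate 4 or PBS replicate 1 or 2, at 8 h without CGRP replicate 1 or 4 or any single PBS replicate, and at both times without the same 4 libraries (adjusted p = 0.0534 to 0.0900 at 4 h and 0.0613 to 0.209 at 8 h).

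Of 23 tested genes reported elsewhere as STAT3 targets, 4 rose and 2 fell at 4 h, and 3 rose and 0 fell at 8 h, beside 7.84% and 8.37% of all genes tested at 4 h and 5.00% and 3.67% at 8 h. The list median was 0.37 at 4 h and 0.01 at 8 h, against -0.00 and -0.02 over all genes tested. Pim1, a kinase that promotes survival, rose at 4 h from 1.62 ± 0.357 to 4.99 ± 1.56 CPM (1.62 ± 0.36, adjusted p = 0.00357). Steap4, a metalloreductase, rose from 1037 ± 189 to 1570 ± 285 CPM (0.60 ± 0.14, adjusted p = 0.00527). The interleukin 4 receptor chain gene Il4ra rose at 4 h (0.49 ± 0.16, adjusted p = 0.0369), a call lost when CGRP replicate 1 or 4 or PBS replicate 1, 2 or 4 was left out, with only the groups compared and with a replicate block (adjusted p = 0.0552 to 0.148). Serpina3n, an acute-phase protease inhibitor, was higher at both times, 123 ± 34.3 and 267 ± 63.7 CPM at 4 h (1.11 ± 0.21, adjusted p = 0.00282) and 70.6 ± 10.7 and 160 ± 26.6 CPM at 8 h (1.18 ± 0.22, adjusted p = 0.00509). The falls at 4 h, named after their values were seen, were those of cyclin D1 (Ccnd1, -0.71, adjusted p = 0.0393) and the transcription factor gene Klf6 (-0.29, adjusted p = 0.0402). The alternatives were not examined for these falls.

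At 8 h Timp1, an inhibitor of matrix metalloproteinases, rose from 42.2 ± 18.7 to 354 ± 252 CPM (3.08 ± 0.66, adjusted p = 0.0141), with a lowest CGRP library of 118 CPM and a highest PBS library of 63.3 CPM. At 4 h Timp1 stood at 56.2 ± 15.7 CPM after PBS and 190 ± 119 CPM after CGRP and was not called. A difference between the times was not shown for any tested gene of this list. Birc5, which is expressed in dividing cells, was higher after CGRP, 2.20 ± 1.07 against 0.435 ± 0.342 CPM (2.34 ± 0.63, adjusted p = 0.0224), a call lost when CGRP replicate 3 or PBS replicate 1 or 4 was left out and without the same 4 libraries (adjusted p = 0.0540 to 0.258). Its level after PBS had been 2.96 ± 0.712 CPM at 4 h and fell by 2.76 on the log2 scale to 8 h (adjusted p = 0.0445), while after CGRP it was 2.03 ± 1.31 CPM at 4 h. The PBS 8 h libraries held 12 counts of Birc5 in all, and the alternatives were not examined for this fall. The calls of Serpina3n and Timp1 at 8 h were lost without the 4 libraries with the most genes detected (adjusted p = 0.0999 and 0.238).

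**Figure D4:**
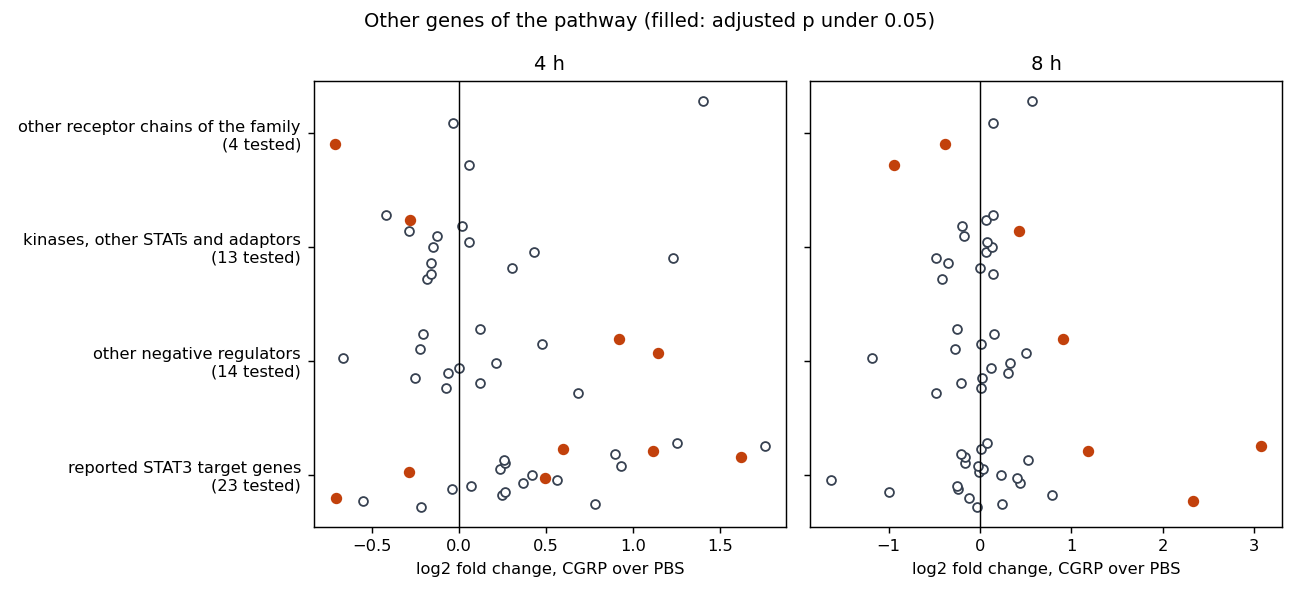
log2 fold change of CGRP over PBS at 4 h (left) and 8 h (right) for the tested genes of the 4 pathway lists, 1 point per gene; filled points have an adjusted p under 0.05 and vertical position within a list has no meaning. At 4 h the STAT3 target list holds 4 filled points to the right of 0 and 2 to the left.

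The genes whose pattern over the 16 libraries was most like that of 3 members were ranked by Pearson correlation of log2 CPM among 9800 other named genes that averaged 5 CPM or more. For Socs3 they were Adgrd1 (r = 0.959), Mt1 (0.953) and Ggct (0.944), for Stat3 they were Mpp7 (0.927), Tcf25 (0.925) and Timeless (0.916), and for Lif they were Rcc1 (0.857), Snrpc (0.823) and Smndc1 (0.822). These correlations run across the treatment groups, so any gene with a similar group difference scores high.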

How the data were processed

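The authors deposited raw read counts per gene symbol, 1 column per library; alignment used STAR 2.5.4 to mm10 and counting used featureCounts, per the submitters' processing notes. Annotation, strand setting and multi-mapping rules: not given in the sources used here. Counts were checked to be whole numbers, and replicate libraries differed by more than sampling noise (chi-square 6.52 to 22.7 times its degrees of freedom over 24 pairs). Using edgeR 4.0.16 (R 4.3.3), genes were filtered by filterByExpr, scaled by TMM and fitted with a robust quasi-likelihood model with 1 mean per group to all 16 libraries (12 residual degrees of freedom). All tests are two-sided, with Benjamini-Hochberg adjustment over all 13949 genes tested, and calls were made at an adjusted p under 0.05; rose and fell stand for calls. Intervals of ratios are the estimate ± SE with a 95% t quantile on 12 degrees of freedom. Errors are SD for levels and SE for log2 fold changes. Nothing in the labels says that replicates came from separate mice, so p-values measure only the spread between these samples, which may be technical. Exact permutation tests used log2 CPM with a prior count of 0.5. The fit was also run on simulated data, with changes placed only in genes of higher mean counts than Il6 and Il11. The outcome of that run is not reported here. Alternatives were no filter, RLE and upper-quartile scaling, DESeq2 1.42.0, the groups compared alone, no robust estimation, a replicate block and each library left out; leaving out the 4 libraries with the most genes detected, and applying the alternatives to pathway genes, were chosen after seeing the data. The members and lists were chosen with earlier results of these data known. Named genes are the 10 members and up to 4 called genes with the smallest p per list and comparison. The 3 most alike genes of Socs3, Stat3 and Lif are named too. Osm, Cspg4, Myh11, Kcnj8, Rgs5, Acta2, Acta1, Ccnd1 and Klf6 were named after their values were seen, and the alternatives were not examined for them. Positions and exon lengths are from GENCODE M21 (GRCm38, the same assembly as mm10). Of a list of other cytokine genes, Osm is given and the rest is not reported here.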

Additional observations from a re-analysis of the deposited data

Results flagged for a closer look

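In the 40 groups of 4 libraries examined (10 genes in 4 groups), 2 held a library far from the other 3, and chance flags about 1 group in 20. Il6ra in CGRP 4 h replicate 1 stood at 94.9 CPM, against 60.9 to 65.4 CPM in the other CGRP 4 h libraries. Osmr in CGRP 4 h replicate 4 stood at 327 CPM, against 241 to 248 CPM in the other CGRP 4 h libraries. The CGRP effect differed between the times, by the test of the difference itself, for Il6ra (-1.06 on the log2 scale, 8 h minus 4 h) and for Stat3 (-0.72).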

How the results depend on the processing

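Over the 10 genes and 5 contrasts, 50 results were recomputed under the alternatives, which gave 868 values in all. Of these values 825 stayed on the same side of the threshold, 29 lost a call, 14 gained 1 and 0 called values changed sign. Most of the 50 results were not calls in the reported fit, and an uncalled result that stays uncalled is among the 825. Most losses were those of Lif at 4 h (10 of 16 alternatives), Socs3 at 8 h (9 of 16) and Clcf1 at 4 h (4 of 16). The rest were of Il6ra, Osmr and Stat3. The count of the 10 genes called at 4 h was 4 to 7 with each library left out (7 with all), and the count of all genes 1481 to 2226 (2262 with all; 1481, and 4 of the 10, without CGRP 4 h replicate 4). At 8 h it was 1 to 3 (2 with all), 4 without the filter, 1 with the replicate block and 1 without the 4 libraries with the most genes detected; all genes called were 577 to 1279 (1210 with all; 577 to 789 without CGRP 8 h replicate 1 or 4 or PBS 8 h replicate 1, 3 or 4) and 191 without those 4. For the difference between the times 1 or 2 of the 10 were called with a library left out and 1 without those 4, and all genes called were 80 to 196 (156 with all; 80 to 101 without CGRP 4 h replicate 1 or 4, CGRP 8 h replicate 3, PBS 4 h replicate 2 or PBS 8 h replicate 1, 3 or 4), 456 without the filter, 387 with DESeq2 and 63 without those 4. For 8 h against 4 h after PBS, 2 of the 10 were called without the filter and 1 with DESeq2 (0 in the reported fit), and all genes called were 17 to 280 (72 with all; 280 without PBS 4 h replicate 4, 119 without PBS 8 h replicate 2 and 17 to 33 without any other), 422 without the filter, 323 with DESeq2 and 131 with only those groups fitted. After CGRP the range was 5 to 6 of the 10 and 666 to 953 of all genes (1012 with all; 666 without CGRP 8 h replicate 2). The cause of these moves was not tested. Upper-quartile scaling gave 913 higher and 1381 lower calls at 4 h, against 1094 and 1168, and 45.0% of its calls at 8 h were higher, against 57.7%. The labels do not say whether shared replicate numbers pair the samples, and pairing was not tested. Same-numbered libraries of different groups had correlations of their deviations of -0.0791 to 0.0919 (median 0.00212, against 0.00239 for other numbers). Of 16 libraries, 8 correlated best with a library of their own number, a count that was not compared with chance. Under the replicate block, 6 of the 10 genes were called at 4 h (Lif was lost) and 1 at 8 h (Socs3 was lost), and 2167 of all genes were called at 4 h. The counts of Il6, 28 and 5 over the PBS groups at 4 h and 8 h, limit what its comparisons can show.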
